A study of Mus musculus with 3 samples.

Results

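The axoneme is the microtubule core of motile cilia and of the sperm flagellum, and the genes described here encode its motors, spokes, links and ribs and the proteins that build them. They were taken as the autosomal protein-coding genes of the GENCODE vM21 annotation of mm10 whose symbols begin with Cfap, Dnah, Dnaaf, Rsph, Tekt or Drc followed by a number, with no use of any measured value. The rule gave 66 genes of 20807 autosomal protein-coding genes: 31 Cfap, 15 Dnah, 4 Dnaaf, 8 Rsph, 5 Tekt and 3 Drc genes. Genes without a peak were kept.

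H3K4me3, trimethylated lysine 4 of histone H3, marks the nucleosomes around active transcription starts, and in meiotic cells the zinc-finger protein PRDM9 also deposits it at its own binding sites, which position meiotic recombination. It was profiled by ChIP-seq in whole adult testis of (C57BL/6J x CAST/Eij)F1 males that carried a Prdm9 Humanized allele, in which the zinc fingers are those of human PRDM9, and a Prdm9 CAST allele. There were 2 ChIP libraries (replicates 1 and 2) and 1 input library of chromatin without antibody, all of this single genotype and with no treatment, so no comparison between conditions was possible. The labels describe the replicates as the testes of a single male and the study's methods as a testis from each of a pair of littermates, so the spread between them may be technical.

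Over all 101978 narrow peaks replicate 1 had 17621116 fragments at the peak centres, replicate 2 had 19094837 and the input had 1250138. Peaks had been called on both replicates jointly, so a peak is evidence from both together. In the whole testis, spermatocyte genes had start peaks with a median enrichment of 67.0 (7 of 7 genes), from 14.3 (Dmc1) and 25.02 (Meiob) upwards. The corresponding median was 19.96 for spermatogonia (5 of 5), 16.5 for spermatids (5 of 7, with Spaca1 at 43.6 and Tssk6 at 65.2), 13.2 for Sertoli cells (4 of 5) and 11.0 for Leydig cells (4 of 4). The spermatid genes without a start peak, Tnp2 and Acrv1, each had a start in a broad peak, a run of merged enriched bins. Broad peaks at Prm1, Prm2 and Tnp1 were 23900, 23900 and 22800 bp wide, and at Spaca1 and Tssk6 5100 and 6500 bp. Prm1 and Prm2 may lie in the same broad peak, which was not checked. Among the genes of other tissues reported here, Cdx2, Neurod1 and Gfap had a start peak (enrichments 11.8, 6.35 and 1.46) and Alb, Myh6 and Ins2 had none. All 5 genes of multiciliated cells, which line the efferent ducts next to the testis, had a start peak, with a median enrichment of 20.4. The values were 4.45 (Gmnc), 12.9 (Mcidas), 20.4 (Ccno), 39.2 (Deup1) and 42.3 (Foxj1). The part of these cells in the results below was not tested. In bulk tissue, fewer cells that carry the mark and less mark per cell cannot be told apart.

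Axonemal dyneins are the motors of the axoneme. Their heavy chains (Dnah) sit in outer and inner arms on the peripheral doublet microtubules, and sliding between doublets bends the flagellum. Radial spokes (Rsph) carry signals from the central pair to the arms, the nexin-dynein regulatory complex (Drc) links neighbouring doublets, tektins (Tekt) are filaments in the doublet wall, and dynein assembly factors (Dnaaf) fold and preassemble the arms in the cytoplasm. Many of these genes serve both cilia and flagella, but some chains and spoke proteins have a ciliary form and a separate sperm form. RFX factors are known as regulators of ciliary genes that bind the X-box, a motif made of inverted repeats.

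The promoters of the genes with the highest and lowest enrichment and of the gene without a peak are shown first, because these genes stand at the extremes of the results. For Dnah2 the low value was measured at a peak of an alternative start, whose centre lay 4596 bp from the RefSeq start of the printed promoter. They are the 250 bases before the RefSeq start (GRCm38.p6), in lower case, with matches to the searched motifs in capitals. The motifs, each searched on both strands, were GTTGCCA (the RFX half-site), CATGGNAAC (the X-box half-site with its centre, which overlaps the RFX half-site where N is C), TGTTTAC (FOX), AACTGCC (MYB), TGACGTCA (CRE) and TATAAA (the TATA box). Rsph4a, of the lowest enrichment, is one of 12 genes without an entry in the RefSeq promoter table.
Rsph3a, chr17:7945364-7945613, plus strand: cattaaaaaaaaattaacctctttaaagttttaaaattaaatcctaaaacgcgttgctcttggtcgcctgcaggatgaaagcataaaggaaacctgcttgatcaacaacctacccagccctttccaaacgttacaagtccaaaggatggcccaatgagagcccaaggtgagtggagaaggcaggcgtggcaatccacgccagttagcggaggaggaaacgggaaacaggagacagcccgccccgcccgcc
Dnaaf2, chr12:69198430-69198679, minus strand: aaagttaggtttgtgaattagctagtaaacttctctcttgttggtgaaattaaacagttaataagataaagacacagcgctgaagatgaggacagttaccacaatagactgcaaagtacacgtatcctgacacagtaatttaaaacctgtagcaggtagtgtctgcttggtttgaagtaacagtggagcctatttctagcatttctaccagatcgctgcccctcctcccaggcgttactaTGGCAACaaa
Cfap300, chr9:8042876-8043125, minus strand: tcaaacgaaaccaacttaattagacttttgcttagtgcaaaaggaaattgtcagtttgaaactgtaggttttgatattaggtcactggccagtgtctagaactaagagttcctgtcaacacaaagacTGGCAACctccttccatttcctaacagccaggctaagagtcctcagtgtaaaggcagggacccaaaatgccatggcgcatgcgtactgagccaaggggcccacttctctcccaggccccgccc
Dnah2, chr11:69549109-69549358, minus strand: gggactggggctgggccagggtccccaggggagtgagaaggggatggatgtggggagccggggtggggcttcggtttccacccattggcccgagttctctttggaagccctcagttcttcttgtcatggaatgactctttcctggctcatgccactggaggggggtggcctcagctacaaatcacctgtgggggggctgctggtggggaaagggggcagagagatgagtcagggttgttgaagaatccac
Dnah5, chr15:28203516-28203765, plus strand: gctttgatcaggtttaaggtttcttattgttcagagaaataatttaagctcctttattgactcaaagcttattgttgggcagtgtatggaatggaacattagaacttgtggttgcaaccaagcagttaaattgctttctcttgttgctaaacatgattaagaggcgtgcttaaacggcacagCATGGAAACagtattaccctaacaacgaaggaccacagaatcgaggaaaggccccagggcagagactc

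Rsph3a held no match and had the highest enrichment, though not the most fragments. Dnaaf2 and Cfap300, next in enrichment, each held 1 RFX half-site on the minus strand of the window, 10 and 123 bases before the start. The Dnaaf2 window lies within the exon of 9330151L19Rik, a noncoding RNA read in the opposite direction. Dnah2 held none. Dnah5, the gene without a start peak, held an X-box half-site with its centre 68 bases before its start. A match in these windows is a description of the sequence, not a bound site.

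The same motifs were counted in the 300-base RefSeq windows (250 bases before to 50 after the start) of the 54 genes with an entry and of 15687 autosomal protein-coding genes. The RFX half-site was present in 13 of 54 axonemal promoters, or 24.1% (exact 95% binomial interval 13.5% to 37.6%), against 4.29% of all promoters. In 10 of the 13 genes it lay within the 100 bases before the start, a position that was not counted over all promoters. The X-box half-site with its centre was present in 6 promoters (11.1% against 1.52%). In 3 genes it overlapped an RFX half-site, and such overlaps were not counted over all promoters either. FOX and MYB matches were present in 4 promoters each (7.41% against 2.96% and 3.64%), CRE in 1 (1.85% against 2.47%) and TATA in 2 (3.70% against 12.6%). The median GC content of the windows was 55.5% for the axonemal genes and 57.7% for all genes. The median ratio of observed to expected CpG was 0.546 and 0.633. The genes with an RFX half-site were Cfap20, Cfap44, Cfap58, Cfap74, Cfap97d2, Cfap161, Cfap298, Cfap300, Dnaaf2, Dnah7b, Dnah10, Drc1 and Tekt1.

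**Figure D1:**
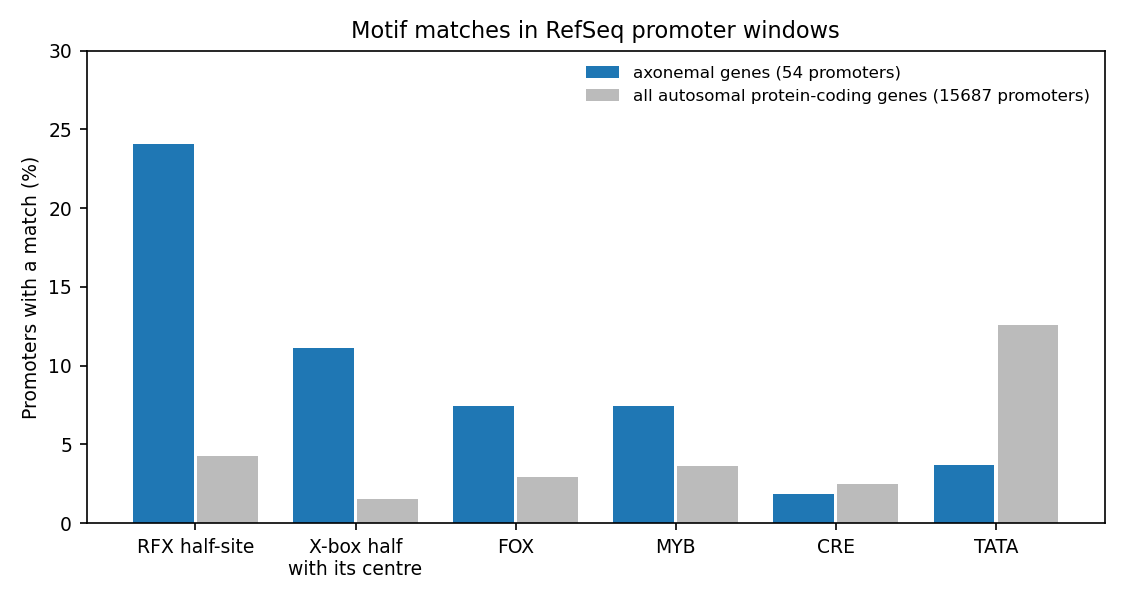
Share of RefSeq promoter windows with a match to each motif (percent, bars from 0), for 54 axonemal genes (blue) and 15687 autosomal protein-coding genes (grey). The RFX half-site was present in 24.1% and 4.29%, and TATA in 3.70% and 12.6%.

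Promoters with RFX half-sites are shown for 3 genes picked after their matches were seen: Cfap161 with 3 of them, 2 of these side by side, Cfap97d2 with an RFX half-site inside an X-box half-site, and Tekt1 with 1 close to the start. The Cfap161 stretch is 239 bases long, and its last bases belong to an exon of a longer Cfap161 transcript. The strongest start peak of Cfap97d2 had its centre 2093 bp from the RefSeq start of the printed promoter.
Cfap161, chr7:83794851-83795089, minus strand: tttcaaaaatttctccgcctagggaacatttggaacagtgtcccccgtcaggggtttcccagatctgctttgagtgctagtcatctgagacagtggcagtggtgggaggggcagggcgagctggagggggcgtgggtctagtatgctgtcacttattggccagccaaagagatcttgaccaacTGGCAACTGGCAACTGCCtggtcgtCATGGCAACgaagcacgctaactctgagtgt
Cfap97d2, chr8:13705639-13705888, plus strand: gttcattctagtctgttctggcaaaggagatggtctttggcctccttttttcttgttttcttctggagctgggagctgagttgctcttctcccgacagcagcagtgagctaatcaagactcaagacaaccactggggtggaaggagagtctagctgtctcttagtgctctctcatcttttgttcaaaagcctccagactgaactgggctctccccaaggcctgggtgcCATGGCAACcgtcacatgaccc
Tekt1, chr11:72361883-72362132, minus strand: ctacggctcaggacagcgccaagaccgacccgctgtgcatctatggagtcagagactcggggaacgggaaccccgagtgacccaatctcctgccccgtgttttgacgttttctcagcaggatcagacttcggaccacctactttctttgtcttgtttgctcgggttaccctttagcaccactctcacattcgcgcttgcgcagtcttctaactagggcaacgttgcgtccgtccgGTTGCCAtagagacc

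Nearly all of these genes carried H3K4me3 at a start. A narrow peak had its centre within 1 kb of an annotated start in 65 of the 66 genes, beside 77.3% of all autosomal protein-coding genes. A start lay inside a broad peak, a run of merged enriched 100 bp bins, in 65 of 66 genes, beside 76.5% of all genes. Where a gene had several start peaks, the peak with most ChIP fragments stands for it below and is called its strongest start peak. PRDM9-independent regions are those marked in several mice with different Prdm9 alleles, as deposited. All 65 strongest start peaks had their centre in such a region, beside 92.2% of the genes with a start peak. In each of the 65 genes both ChIP replicates had more fragments at the peak centre than the input, beside 99.0% of the genes with a start peak, and the peaks had been called against this input.

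Enrichment is the authors' estimate of ChIP coverage over local background from both replicates together, without a unit, and is called a ratio below. The study's supplement gives its H3K4me3 enrichment as fold over background less 1, so a value under 1 can still lie above background. Over the 65 genes its quartiles were 31.1, 46.8 and 68.9, and over all genes with a start peak 14.4, 37.9 and 65.7. Of the 65, 41 lay above the median of all genes. By fragments the order was the other way: for the axonemal genes replicates 1 and 2 and the input had medians of 607, 691 and 15 fragments, and for all genes 756, 826 and 20. The median gene lay at percentile 58.2 of all genes by enrichment, at 43.8 by ChIP fragments and at 26.7 by input fragments. Whether these genes lie above or below the middle of all genes therefore rests on whether the input enters the measure.

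**Figure D2:**
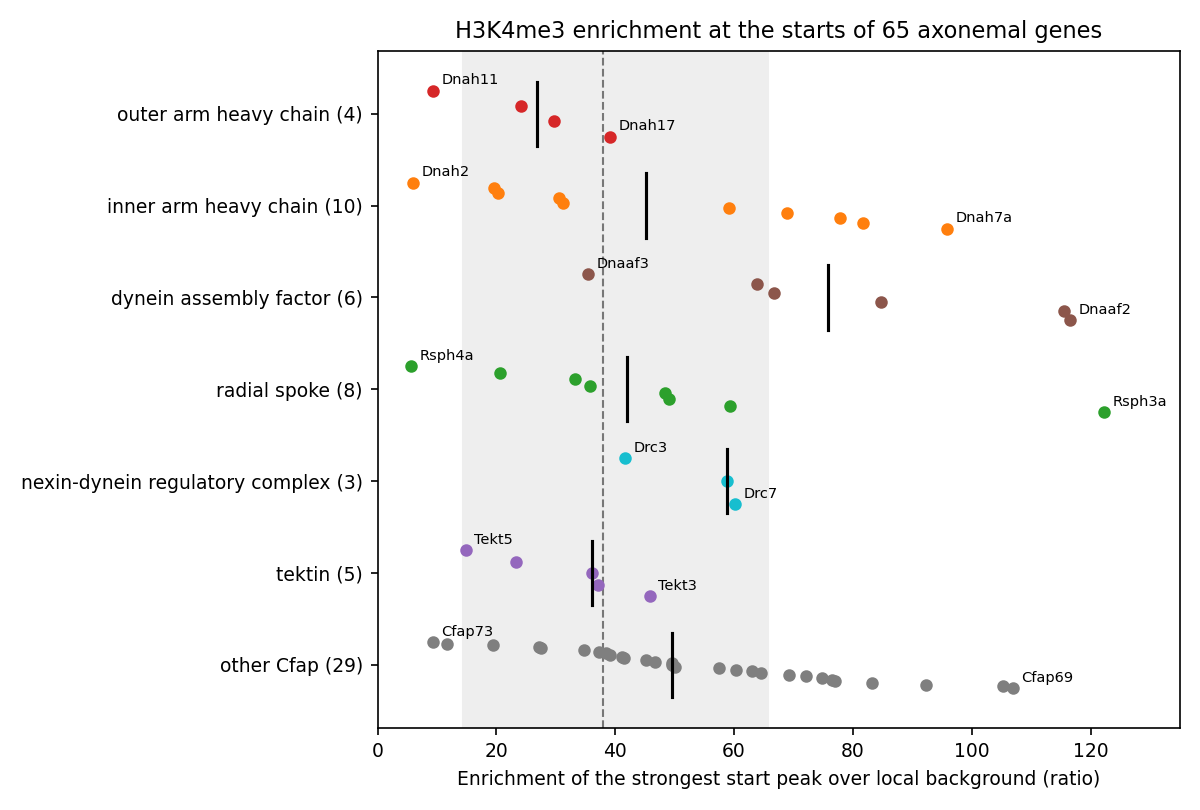
Enrichment of the strongest start peak (ratio, x axis) of 65 axonemal genes, 1 point a gene, by role, with the number of genes in brackets and the median as a vertical bar. The grey band and dashed line are the quartiles (14.4 to 65.7) and median (37.9) of all genes with a start peak, and the assembly factors have the highest median (75.7) and the outer arm heavy chains the lowest (26.9).

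The broad peaks around these starts were wide beside those of all genes. The broad peak holding the strongest start peak had a median width of 6600 bp, beside 3200 bp for all genes with a start peak, and 61 of 65 were wider than that median. Of the 65, 48 were at least as wide as the upper quartile of all genes (5000 bp), beside 25.7% of all genes, and the median gene lay at percentile 84.9. Width was not particular to them: marker genes of spermatids had a median of 22800 bp and of Sertoli cells 7000 bp. Those of spermatocytes, Leydig cells and spermatogonia had 3900, 3800 and 3700 bp. Prm1 and Prm2 had the same width of 23900 bp, perhaps that of a single broad peak, and both entered the spermatid median. From the nearest start the broad peaks of the axonemal genes reached a median of 3656 bp downstream and 2383 bp upstream. For all genes these medians were 1708 bp and 1278 bp. Broad peaks of 13 genes also held a start of another protein-coding gene, beside 21.0% of all genes. Without those, the median width was 6400 bp over 52 genes and 2800 bp over all genes. More than 1 narrow centre lay in the broad peak of 35 genes of 65, against 22.0% of all genes. Width followed enrichment loosely, with a Spearman correlation over genes of 0.174 for the 65 genes and 0.483 for all genes, given without a test because genes share libraries and local sequence.

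**Figure D3:**
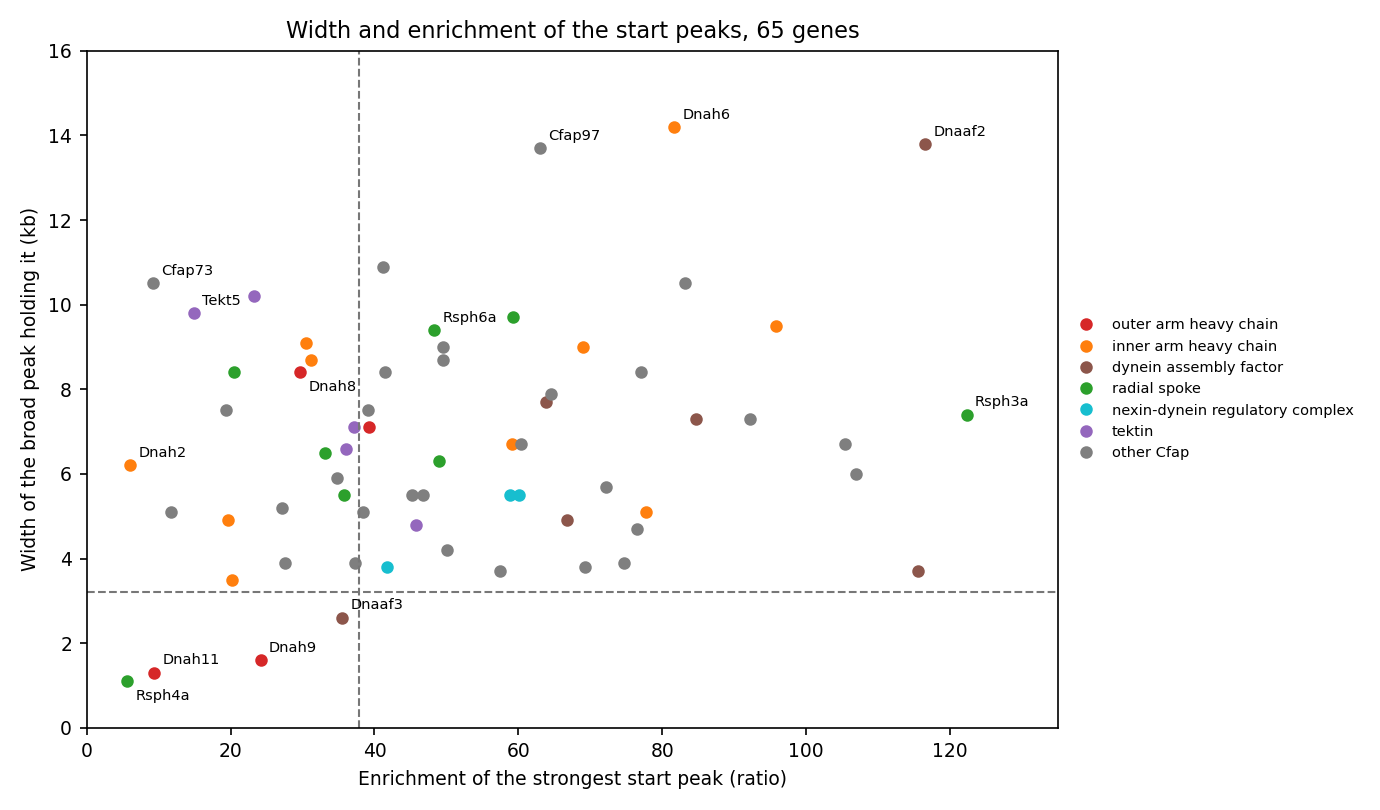
Width of the broad peak (kb, y axis) against enrichment of the strongest start peak (ratio, x axis) for 65 axonemal genes coloured by role. Dashed lines are the medians of all genes with a start peak (width 3200 bp, enrichment 37.9), and Rsph4a, Dnah11, Dnah9 and Dnaaf3 are the 4 genes below the width line.

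The strongest start peak lay close to a start, within 300 bp in 53 of 65 genes beside 77.9% of all genes, and downstream of the start in 49, beside 77.4% of all genes. The largest distance was that of Cfap52, a microtubule inner protein, whose peak centre lay 948 bp upstream of a start, just inside the limit of 1 kb. The nearest gene outside the limit was Dnah5, whose closest peak centre lay 5566 bp from its start. More than 1 start peak was found in 18 genes of 65, beside 23.7% of all genes.

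Outer arm heavy chains form the motors that set beat frequency, and 5 of the genes encode them. Dnah5 and Dnah9 form the outer arms of motile cilia with Dnah11, and Dnah8 and Dnah17 take their places in the sperm flagellum. Dnah5 had no peak within 1 kb of its only annotated start, chr15:28203752 on the plus strand. Its nearest peak centre lay inside the gene, where both replicates had 10 fragments and the input had 2 (enrichment 4.58), and it was not PRDM9-independent. The edge of the nearest broad peak lay 5149 bp from the start.

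At Dnah8 the strongest start peak had 306 and 390 fragments in replicates 1 and 2 and 11 in the input (enrichment 29.7), in a broad peak of 8400 bp. Dnah8 has the most annotated starts of these genes, 20, and it had 5 start peaks, with enrichments from 8.71 to 62.2. The highest of these ratios rests on 192 and 205 fragments against 3 in the input. Its broad peak also holds the start of Glo1 on the opposite strand. Dnah17 had 562 and 691 fragments against 15 in the input (enrichment 39.2), in a broad peak of 7100 bp. Its centre lay 1240 bp upstream of the start of the principal transcript as marked by APPRIS. At Dnah9 there were 474 and 558 fragments against 20 (enrichment 24.2), but the broad peak was 1600 bp wide. Dnah11 had 246 and 279 fragments against 26 (enrichment 9.37), in a broad peak of 1300 bp.

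Among all genes with a start peak, the widths of Dnah9 and Dnah11 lay at percentiles 13.7 and 8.88, and those of Dnah17 and Dnah8 at 87.2 and 91.2. The 2 chains known from sperm and the 2 ciliary chains with a broad peak did not overlap in width, upstream or downstream of the start. The plot of broad peak reach shows these 2 groups. In fragments they did overlap, since Dnah9 had more in both replicates than Dnah8. With 2 genes of the sperm form and 3 of the ciliary form, of which Dnah5 had no broad peak, no test was made. The genes were picked for this grouping after their values were seen. How often other pairs of genes separate in this way was not counted.

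**Figure D4:**
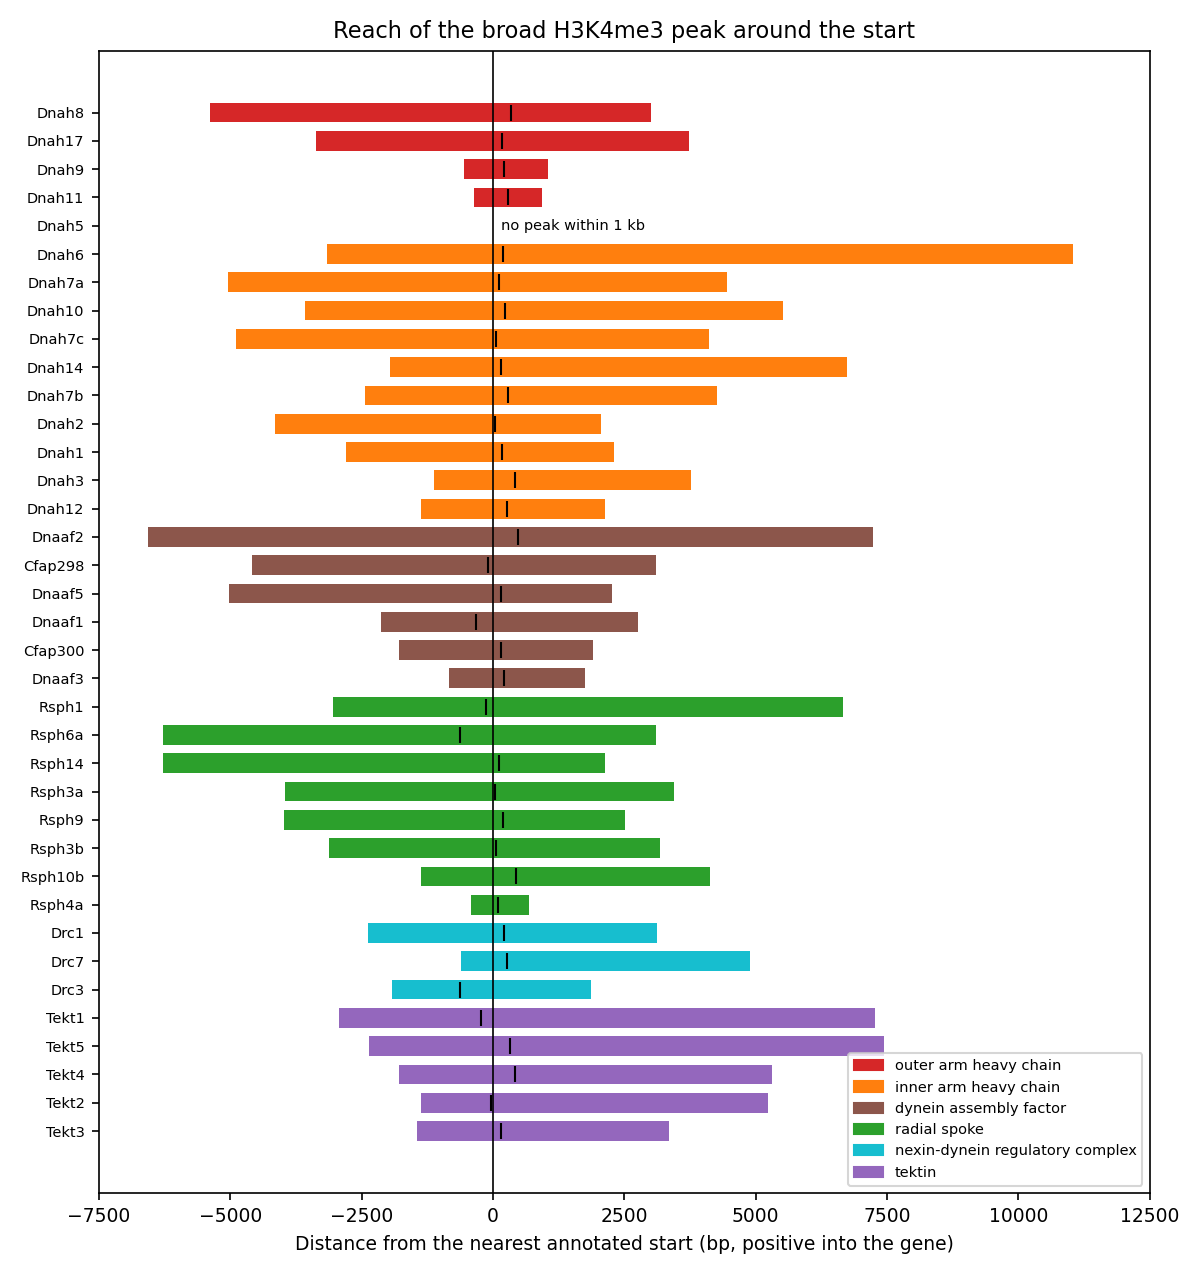
Reach of the broad H3K4me3 peak upstream (negative) and downstream (positive) of the nearest annotated start in bp, for 37 genes with a named role, with a tick at the centre of the strongest start peak. Dnah9 (1600 bp), Dnah11 (1300 bp) and Rsph4a (1100 bp) have the shortest bars, Dnah6 (14200 bp) the longest, and Dnah5 has none.

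Inner arm heavy chains shape the bend, and all 10 had a start peak, with enrichments from 6.04 (Dnah2) to 95.8 (Dnah7a) and a median of 45.1. Their broad peaks were wide, with a median of 7700 bp and none under 3500 bp (Dnah12). Dnah1, mutated in men with malformed sperm flagella, had 465 and 528 fragments against 6 in the input (enrichment 77.8). Dnah6 had only 317 and 378 fragments against 4 (enrichment 81.7), so that its high ratio rests on few input fragments, and its broad peak of 14200 bp was the widest of all 65. Dnah10 had 912 and 977 fragments against 29 (enrichment 30.5) and Dnah14 569 and 627 against 18 (enrichment 31.1). Dnah3, with 130 and 164 fragments against 7 (enrichment 19.6), and Dnah12, with 127 and 132 against 6 (enrichment 20.2), were among the lowest in fragments in both replicates.

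Dnah2 had the lowest value of the inner arm chains, with 117 and 119 fragments against 18 in the input (enrichment 6.04), and it depended on the distance limit. This peak lay at an alternative start (chr11:69544556). A much stronger centre in the same broad peak of 6200 bp, with 729 and 892 fragments against 21 (enrichment 36.2), lay 1817 bp upstream of that start and 2737 bp inside the 5′ end of the gene. It is the Dnah2 value when the limit is widened to 2 kb. The broad peaks of Rsph4a and Dnah11, also low, held no other centre.

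The 3 copies Dnah7a, Dnah7b and Dnah7c had similar fragments and less similar enrichments. Replicate 1 had 1197, 1251 and 1170 fragments, replicate 2 had 1249, 1392 and 1323, and the input 12, 21 and 17 (enrichments 95.8, 59.1 and 68.9). Reads may be divided between the copies in ways that cannot be traced here, so the differences between their ratios are uncertain. Their aligned RefSeq promoter windows were 79.6% identical between Dnah7a and Dnah7c, 67.7% between Dnah7a and Dnah7b and 59.8% between Dnah7b and Dnah7c. The windows of Rsph6a and Dnah8, from different families, were 52.3% identical by the same alignment. All lie on chromosome 1, with Dnah7b and Dnah7c next to each other, and of the copies only Dnah7b held an RFX half-site.

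Dynein assembly factors had the highest median enrichment of these roles. Besides the 4 Dnaaf genes, Cfap298 and Cfap300 act in the preassembly of dynein arms, and these 6 genes had a median enrichment of 75.7. Dnaaf2, which works with heat shock chaperones, had 2445 and 2511 fragments against 20 in the input (enrichment 117) in a broad peak of 13800 bp, which also held the starts of 3 other genes. Cfap300 had 1598 and 1595 fragments against 13 (enrichment 116) in a narrower broad peak of 3700 bp that held no other start. Dnaaf5, a heat-repeat protein, had 1528 and 1717 against 18 (enrichment 84.7), and its peak is shared with Prkar1b on the opposite strand. Dnaaf1, a leucine-rich repeat protein, had 1428 and 1554 against 21 (enrichment 66.7) and shares its peak with Hsdl1. Cfap298 had 2022 and 2054 against 30 (enrichment 63.8). Dnaaf3 was the lowest, with 474 and 509 against 13 (enrichment 35.5) and a broad peak of 2600 bp, and in both replicates it had fewer fragments than any other assembly factor. For 3 of the 6 the broad peak held another gene's start, so the mark cannot be given to the assembly factor alone.

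Radial spoke genes spanned the whole range. Rsph3a, a spoke stalk protein, had 1000 and 1080 fragments against 8 in the input (enrichment 122), the highest of the 65 genes, and its close copy Rsph3b had 1647 and 1795 against 33 (enrichment 49.0). Rsph3b thus had more fragments in both replicates and the lower ratio. If reads are shared between this pair their ratio is uncertain, which was not tested. Their promoter windows were 48.5% identical, no more than the 52.3% of Rsph6a and Dnah8, which belong to different families. Rsph1, a spoke head protein, had 2134 and 2279 against 35 (enrichment 59.2), Rsph9 744 and 812 against 22 (enrichment 33.2), and Rsph10b 506 and 637 against 15 (enrichment 35.7). Rsph14 had 208 and 231 against 10 at its start (enrichment 20.5), while the strongest centre of its broad peak lay 4827 bp upstream (enrichment 30.5), and this broad peak also holds a start of 1 other gene.

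Rsph4a and Rsph6a are the ciliary and the sperm form of a spoke head protein. Rsph4a had 65 and 58 fragments against 10 in the input (enrichment 5.66), the lowest of the 65 genes in both replicates, with a broad peak of 1100 bp. Rsph6a had 771 and 876 against 16 (enrichment 48.3), with a broad peak of 9400 bp that also held the start of 1 other gene. Its strongest centre lay 628 bp upstream of a start, outside a limit of 500 bp. All values of Rsph4a, in fragments and in width, lay below those of Rsph6a. This is a single pair of genes, and no test was made. How often other pairs of genes differ as much was not counted.

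The 3 nexin-dynein regulatory complex genes differed more in fragments than in enrichment. Drc1 had 713 and 791 fragments against 12 in the input (enrichment 58.9), Drc7 339 and 429 against 6 (enrichment 60.1) and Drc3 867 and 911 against 20 (enrichment 41.7). Drc3 shares its peak, 633 bp upstream of its start, with Tom1l2 on the opposite strand. Drc7 had the fewest fragments and the highest ratio of the 3, but that ratio rests on only 6 input fragments.

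Tektins had ordinary enrichment and wide broad peaks that reached far downstream of the start. Tekt1 had 553 and 591 fragments against 23 in the input (enrichment 23.3), Tekt2 508 and 569 against 14 (enrichment 36.1) and Tekt3 527 and 546 against 11 (enrichment 45.8). Tekt4 had 739 and 763 against 19 (enrichment 37.1), and Tekt5, a testis tektin, had 562 and 556 against 35 (enrichment 14.9). The 5 genes stood closer to each other in fragments, 508 to 739 in replicate 1 and 546 to 763 in replicate 2, than any other group with 5 or more genes. Their broad peaks reached 3346 to 7447 bp downstream of the start and 1365 to 2927 bp upstream, with a median width of 7100 bp. At Tekt2 the downstream reach, 5234 bp, exceeded the gene's length of 3568 bp. For Tekt2 the strongest centre of the broad peak (1687 and 1594 fragments against 38) lay 3685 bp downstream of a start, beyond the gene's end. This broad peak also holds a start of another gene.

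The 29 other Cfap genes, which encode cilia- and flagella-associated proteins of many places in the axoneme, all had a start peak, with enrichments from 9.25 to 107 and a median of 49.6. Cfap69, needed for the sperm flagellum, had 1999 and 2094 fragments against 18 in the input (enrichment 107). Cfap65 had only 303 and 369 fragments, against 3 in the input (enrichment 105), so its ratio rests on very few input fragments. Cfap36 had 1173 and 1377 against 13 (enrichment 92.2), and Cfap20, a conserved inner junction protein of the doublet, had 2466 and 2490 against 28 (enrichment 83.2). At the low end, Cfap97d2 had 104 and 122 against 9 (enrichment 11.7) and Cfap126 185 and 229 against 10 (enrichment 19.4), each more than 1 kb from the start of its principal transcript. Cfap73, known as a modifier of inner arms, had 156 and 163 against 16 (enrichment 9.25), yet its broad peak was 10500 bp wide and held a centre 3965 bp downstream of the start with 473 and 532 fragments against 13 (enrichment 36.3).

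Strongest start peaks of 9 genes, beside 14.8% of all genes with a start peak, also served a protein-coding gene on the opposite strand. These were Cfap52 with Stx8, Cfap57 with Ebna1bp2, Cfap61 with Crnkl1, Cfap97d1 with Dusp3, Cfap99 with Zfyve28, Dnaaf1 with Hsdl1, Dnaaf5 with Prkar1b, Dnah8 with Glo1 and Drc3 with Tom1l2. Cfap52 had 854 and 1054 fragments against 12 (enrichment 74.7), Cfap57 1032 and 1179 against 15 (enrichment 69.3) and Cfap61 1485 and 1607 against 19 (enrichment 76.5). Cfap97d1 had 1160 and 1224 against 27 (enrichment 41.4) and Cfap99 969 and 959 against 15 (enrichment 60.4). ChIP fragments at such a shared start do not show which gene they belong to.

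The replicates gave nearly the same values. After scaling by their totals over all narrow peaks, the log2 ratio of replicate 1 to replicate 2 lay between -0.23 (Dnah8) and 0.28 (Rsph4a), with a median absolute value of 0.07, beside 0.09 for all genes with a start peak. In a two-sided exact binomial test of each peak, adjusted by Benjamini-Hochberg over all narrow peaks, no peak of the 65 differed between replicates. The test called 0.773% of all narrow peaks and 4.40% of the strongest start peaks of all genes. At an unadjusted p under 0.05 there were 11 of the 65, beside 21.5% of the strongest start peaks of all genes, and Cfap52 had the lowest p (0.00499, exact binomial). Scaled by the median ratio of the replicates instead of their totals, 4 of the 65 peaks differed (Cfap20, Cfap298, Cfap300 and Dnaaf2), beside 12.9% of the strongest start peaks of all genes. This test compares 2 libraries and covers counting error only.

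**Figure D5:**
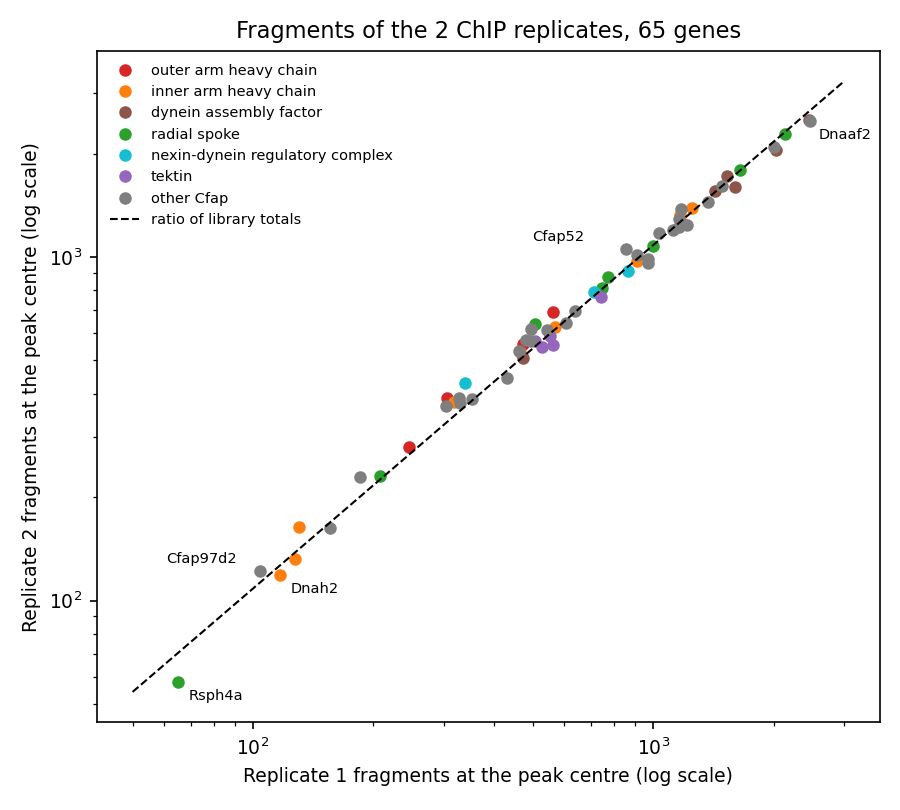
Fragments at the centre of the strongest start peak in replicate 1 (x axis) and replicate 2 (y axis), both on log scales, for 65 axonemal genes coloured by role. The dashed line is the ratio of the library totals, and all points lie near it from Rsph4a (65 and 58) to Dnaaf2 (2445 and 2511).

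Related genes outside these symbol families were read from fixed lists. Of 76 listed genes, 75 were matched in the annotation as genes of their own, and 74 of these had a start peak, all of them PRDM9-independent, with a median enrichment of 51.8 and a median broad peak of 5450 bp. Dnali1, an inner arm light chain, had no narrow centre within 1 kb, but a start of it lay in a broad peak. The list medians of enrichment were 56.1 for intermediate and light dynein chains (9 of 10 with a peak), 47.6 for docking and attachment factors (7 of 7), 56.5 for other cytoplasmic assembly factors (8 of 8) and 48.6 for other subunits of the nexin-dynein regulatory complex (8 of 8). They were 32.5 for other radial spoke genes (8 of 8), 45.6 for the central pair (8 of 8) and 64.7 for intraflagellar transport (16 of 16). List medians of broad peak width ran from 4000 bp (other cytoplasmic assembly factors) to 7350 bp (other nexin-dynein regulatory complex). That list and docking and attachment, at 7200 bp, lay above the 6600 bp of the axonemal genes, and the other lists below. The docking gene Ttc25 had 482 and 581 fragments against 4 in the input (enrichment 125), and Ift46, a transport subunit, 2803 and 2789 against 24 (enrichment 110).

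Among 10 genes of ciliary transcription the median was 52.1. Rfx1, Rfx2 and Rfx3, whose products bind the X-box, had enrichments of 89.1, 67.0 and 61.9, and Rfx4 had 26.9. Mybl1 and Crem, regulators of spermatocytes and spermatids, had 71.3 and 62.9. Gmnc and Trp73, which act early in the multiciliated cell programme, had 4.45 and 5.59, with 105 and 109 fragments against 22 for Gmnc and 144 and 160 against 25 for Trp73. Mcidas and Foxj1, of the same programme, had 12.9 and 42.3.

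Away from every protein-coding start, the bodies of the 66 genes held 259 narrow peaks in 58 genes, of which 192 were PRDM9-dependent, that is, outside the PRDM9-independent regions. The share was 74.1%, against 73.7% over all genes, and the density 2.96 PRDM9-dependent peaks in 100 kb, against 2.63. Some of the 192 lay in the broad peak around the gene's own start, because only the peak centre was compared with the regions. At Cfap44, for example, centres 2680, 3878 and 5366 bp into the gene lay in its broad peak of 8700 bp. Such peaks were not counted apart, here or over all genes. The 15 heavy chain genes, 3403 kb of the 6494 kb in all, held 114 of the peaks, 89 of them PRDM9-dependent. Dnah5 held 10 peaks, 8 of them PRDM9-dependent, although its start had no peak. The Dnah5 peak with most fragments of these 8 had 54 and 66 against 3 in the input (enrichment 18.7), 159937 bp into the gene. Another had 16 and 31 fragments and none in the input, so that its enrichment of 44.1 is imprecise. Cfap299 held the most body peaks, 23, of which 17 were PRDM9-dependent.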

How the data were processed

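H3K4me3 ChIP-seq and input were measured in whole adult testis (2 ChIP libraries, 1 input library). Reads were mapped to mm10 with BWA per the submitters' processing notes, which also list SAMtools and bedtools, then with Stampy per the study's methods, and peaks were called on both replicates jointly against the input. The deposited counts are fragments over the single base of each narrow peak centre, without normalization. Fragments had been dropped unless at least one of their reads mapped with nonzero quality, which lowers coverage at near-identical copies. The deposited enrichment is the authors' estimate of ChIP over local background coverage, imprecise where the input is low. In the study's supplement H3K4me3 enrichment is fold over background less 1, so values under 1 need not lie below background. The deposited p-value is the authors' test against no enrichment, used here only as a threshold. Broad peaks and PRDM9-independent regions were deposited as positions.

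Peak centres were matched to all GENCODE vM21 starts within 1 kb, and a peak was PRDM9-independent where its centre lay in such a region. Counts and medians stand beside those of all autosomal protein-coding genes. Only the replicates were tested, by a two-sided exact binomial test for each narrow peak with Benjamini-Hochberg adjustment. Intervals cover counting error only. The matching and the test were tested on simulated data. Named were all Dnah, Dnaaf, Rsph, Tekt and Drc genes, the 10 highest and 10 lowest in enrichment, genes without a peak and genes sharing a peak with an opposite strand gene. Other genes (Cfap161, Cfap298, Cfap299, genes with an RFX half-site, examples from the lists) were named with their values known. The genes and lists were chosen with earlier results of these data known. One marker of another tissue is not reported here. List symbols were matched through RefSeq synonyms, and promoters came from RefSeq (GRCm38.p6). Alternatives were other distances, starts, peaks and scalings and leaving out each replicate. Software was numpy 2.4.6, scipy 1.17.1, pandas 2.3.3, Biopython 1.88 and matplotlib 3.10.9 in Python 3.11.15.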

Additional observations from a re-analysis of the deposited data

How the results depend on the processing

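The count of genes with a start peak stayed between 61 and 65 under every alternative tried, and it was 65 without replicate 1 or 2, which says little because the peaks were not called again. At 500 bp Drc3 and Rsph6a had none, with protein-coding starts only Cfap97d2 had none, and with APPRIS principal starts only Cfap126, Cfap97d2, Dnah17 and Dnah2 had none. The principal starts, the strongest centre of the broad peak, the genes alone in their broad peak the checks of width and the RFX half-site share were chosen after seeing the data. The counts in broad peaks and in PRDM9-independent regions were 65 throughout, and the pathway genes with a peak were 74, 68 at 500 bp and 75 at 2 kb. The median enrichment of 46.8 became 41.4 with the peak nearest a start and 49.0 with principal starts, and the median width became 6200 bp with the nearest peak. The median percentile of 58.2 became 56.4 with ChIP over input fragments, and 44.2 to 45.3 without replicate 2 or 1, when one replicate's fragments were ranked without the input. For single genes, the nearest peak lowered the enrichment of 9 (Drc7 from 60.1 to 0.848), and 2 kb raised that of Dnah2 from 6.04 to 36.2. Scaled by the median ratio of the replicates, 4 peaks differed between replicates by the exact binomial test (Cfap20, Cfap298, Cfap300 and Dnaaf2), against 0 with the totals of all or of PRDM9-independent peaks, and the cause was not tested. No paired analysis was possible because there was a single condition. Peaks were called jointly, so widths have no replicate error. Ratios over fewer than 10 input fragments, as at Cfap65, Dnah6, Drc7 and Rsph3a, are imprecise, and so is their order.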
